A study of Mus musculus with 3 samples.

Results

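Ion channel subunit genes were described in 3 populations of mouse cells that differ in the brightness of a motor neuron reporter. The genes were every gene on the array whose symbol begins with Scn and a digit (voltage-gated sodium channels), Kcn (potassium channels and their partners), Hcn and a digit (hyperpolarization-activated cation channels) or Cacna, Cacnb or Cacng (calcium channel subunits). They came to 110 genes with 168 probes, of 16593 named genes on the array. The cells were derived from an Hb9-GFP mouse embryonic stem cell line, kept on feeder cells, formed into embryoid bodies and driven toward motor neurons with retinoic acid and with purmorphamine, which activates the Hedgehog pathway. All 3 populations share the reporter and this treatment. The GFP reports on Hb9, the homeodomain factor encoded by Mnx1, and the cells were sorted into GFP high (motor neurons, per the labels), GFP low and GFP negative. Each population was hybridised to 1 Illumina bead array, so no difference has a replicate, a test or a p-value, and precision is limited by this number of arrays.

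Voltage-gated channels open when the membrane potential changes and carry the action potential of neurons. Sodium channels start the spike, potassium channels end it and set the resting potential, and calcium channels turn it into transmitter release and gene regulation. Each is a pore-forming subunit accompanied by auxiliary subunits that govern its traffic to the membrane and its gating. In differentiating spinal neurons such channels are acquired step by step after the last division.

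The labelled identity was checked on marker genes. All 5 motor neuron markers were detected and stood 2-fold or more above both others on the GFP high array, and the cholinergic enzyme gene Chat had log2 signals of 11.35, 6.74 and 5.70 in the order GFP high, low, negative. All 4 V1 and GABAergic interneuron markers were also 2-fold or more higher on the GFP high and the GFP low array than on the GFP negative array. Bulk arrays of this kind cannot tell apart fewer cells of a type and less RNA per cell, and this holds for every difference below. The arrays were alike in brightness, with 11736, 11727 and 11689 probes detected.

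Most channel genes were below detection. A probe was called detected on an array at a detection p-value under 0.01, which sets it against control probes of that array, and a gene was represented by its probe with the highest mean signal. By this measure 29 of the 110 channel genes, 26.4%, were detected on at least 1 array, against 52.7% of all genes on the array. On all 3 arrays 23 were detected. The GFP high array detected 27 of them, the GFP low array 25 and the GFP negative array 25. The other 81 were not detected on any array, and 60 of those had no probe with a detection p-value under 0.05. A probe that is not detected shows only that its signal was not above background.

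**Figure D1:**
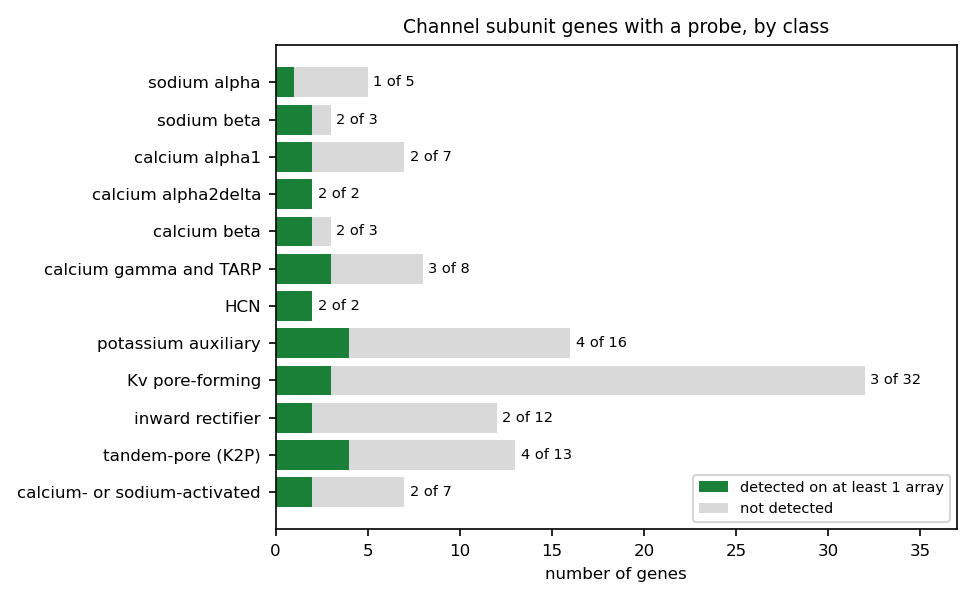
Number of channel genes with a probe in each of 12 classes (horizontal axis, count of genes), split into genes that 1 or more arrays detected (green) and genes not detected (grey). Both alpha2delta and both HCN genes were detected, against 3 of 32 pore-forming Kv genes.

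The classes differed in how much was detected. Of the large class of pore-forming Kv genes, the voltage-gated potassium channels proper, 3 of 32 were detected. Of 12 inward rectifiers, which pass potassium mainly into the cell, 2 were detected. Tandem-pore K2P genes, which form leak channels, had 4 of 13 detected, and the auxiliary potassium subunits 4 of 16. Among sodium channel genes 1 of 5 alpha subunits and 2 of 3 beta subunits were detected. The counts in each class cover only genes with a named probe. Other alpha genes, such as Scn2a, Scn3a and Scn9a, were not among the genes measured, so nothing can be said of them. Of the calcium channel genes 2 of 7 alpha1 pore genes, both alpha2delta genes, 2 of 3 beta genes and 3 of 8 gamma genes were detected. The undetected genes included Scn1a, Scn7a, Scn10a and Scn11a among sodium channel pores, Cacna1a, Cacna1b, Cacna1c and Cacna1d among calcium channel pores, and Kcna1, Kcna2, Kcna3 and Kcna4 among the Kv genes.

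Differences are given as differences of normalized log2 signal. A gene was counted from 2-fold upward, provided that 1 of the arrays compared, or both, detected it. The 3 comparisons share arrays with each other and are not independent. As a gauge of technical spread, the log2 difference of a single probe had an SD of 0.33 between GFP high and negative cells, of 0.26 between GFP high and low cells and of 0.29 between GFP low and negative cells, measured between probes of 1 gene over 2370 genes. Effects common to a whole array, a culture or a sort lie outside this gauge.

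Between GFP high and GFP negative cells, 10 of 29 detected channel genes were 2-fold or more higher in GFP high cells, or 34.5%, where 6.99% of all 8613 genes compared were. In the other direction 4 of 29 were 2-fold or more lower in GFP high cells, or 13.8%, against 9.88% of all genes. The median log2 difference of the channel genes was 0.61, and that of all genes compared was 0.02. The higher genes were Cacna2d1, Cacna2d3, Cacna1g, Kcnk10, Scn2b, Kcnn1, Cacng7, Scn3b, Kcnf1 and Kcnh2, and the lower genes were Kcnk5, Kcnk1, Cacng5 and Kcnj16. A gene detected on only 1 of the arrays had to be dimmer on the other. This was the case for 6 of the 29, Scn3b and Kcnj16 among them. As a bound, an undetected array was set at its lowest detected signal, or at the probe's own signal if that was higher. With these bounds 9 genes were higher and 3 lower, against 6.11% and 8.65% of all genes. Leaving out the background correction compresses dim signals, and then Cacna2d1, Cacna2d3, Cacna1g and Kcnk5 alone of these 14 genes were 2-fold or more apart.

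Between GFP high and GFP low cells, 2 of 27 channel genes were 2-fold or more higher in GFP high cells, where 1.1% of all genes were, and 2 were lower, where 4.17% of all genes were. Cacna2d1 and Cacna1g were the higher genes, Cacng5 and Kcnk5 the lower. Between GFP low and GFP negative cells, 3 of 27 were 2-fold or more higher in GFP low cells, against 3.37% of all genes, and 2 were lower, against 2.68%. The higher genes were Cacna2d3, Kcnk10 and Cacng7, and the lower genes Kcnk5 and Kcnj16. Nothing is read from shares that rest on 2 or 3 genes.

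**Figure D2:**
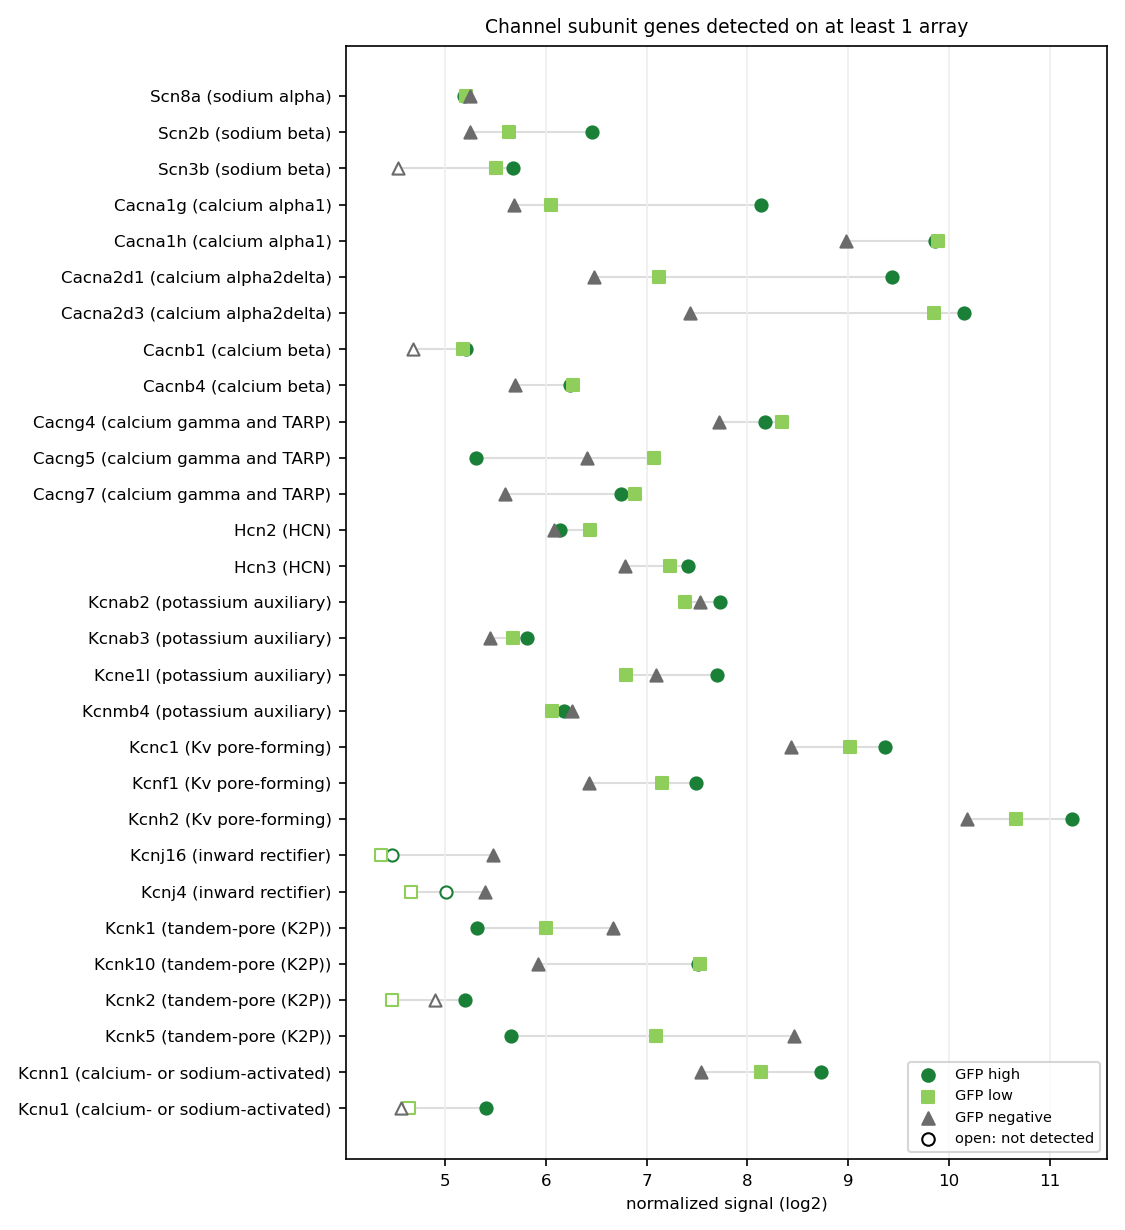
Normalized log2 signal (horizontal axis) of the 29 detected channel genes on the GFP high (circle), GFP low (square) and GFP negative (triangle) arrays, 1 array each, with open symbols where the probe was not detected. Signals are to be compared along a row and not between rows, since probes differ in efficiency; Cacna2d1 and Cacna1g have the GFP high symbol far to the right of the other two, and Kcnk5 shows the reverse order.

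Calcium channel subunits gave the largest differences in favour of GFP high cells. The alpha2delta subunits are extracellular proteins that carry calcium channels to the membrane. Cacna2d1 had log2 signals of 9.43 (GFP high), 7.12 (GFP low) and 6.48 (GFP negative). The GFP high array stood apart from the other pair. The gene was 7.73-fold higher in GFP high than negative cells and stood 4.95-fold above GFP low cells, while GFP low and negative differed by 1.56-fold. Cacna2d3, its relative, had log2 signals of 10.15, 9.85 and 7.43. Here the GFP low array lay next to the GFP high one. The gene was 6.56-fold higher in GFP high and 5.33-fold higher in GFP low than negative cells, and GFP high and low differed by 1.23-fold, a log2 difference of 0.30 close to the between-probe SD of 0.26. Each of these genes has 1 probe.

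The promoters of both genes are shown because these relatives differed in which gate held the larger step. The sequences are RefSeq's, from 250 bases before to 50 after the annotated start, with build GRCm38.p6.
Cacna2d1, chr5:15934441-15934740, plus strand: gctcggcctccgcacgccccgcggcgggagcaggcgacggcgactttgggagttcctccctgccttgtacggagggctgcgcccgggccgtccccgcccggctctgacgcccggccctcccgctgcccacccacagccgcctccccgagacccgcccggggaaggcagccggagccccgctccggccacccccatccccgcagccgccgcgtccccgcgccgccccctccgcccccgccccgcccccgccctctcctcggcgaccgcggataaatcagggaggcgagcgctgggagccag
Cacna2d3, chr14:29721815-29722114, minus strand: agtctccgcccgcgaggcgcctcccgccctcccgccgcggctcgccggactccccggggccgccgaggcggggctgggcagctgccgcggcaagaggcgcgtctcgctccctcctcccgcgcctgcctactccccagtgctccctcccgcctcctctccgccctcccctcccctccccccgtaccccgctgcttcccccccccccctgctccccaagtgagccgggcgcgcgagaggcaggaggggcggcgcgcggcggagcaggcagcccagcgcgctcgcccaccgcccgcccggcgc
Both were rich in G and C, at 80.0% and 81.3% against a median of 52.7% over 32851 promoters, and held 42 and 41 CpG pairs against a median of 7. Capitals, in these and the promoters below, mark the letters CAGCACC or GGACAG on either strand, which are the ends of the RE1 element that neuronal genes can carry. The searched letters do not overlap with each other. Neither promoter held any. Of all promoters 7.14% held CAGCACC and 22.2% held GGACAG. Of the 29 detected channel genes, 22 had a promoter in the table, with 37 promoters between them. Of these, 2 held CAGCACC, or 5.41%, and 14 held GGACAG, or 37.8%. Both strings together were held by 0 of the 37, against 1.73% of all promoters, so no complete RE1 element is shown here.

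The T-type calcium channels open at low voltage and shape the rhythmic firing of immature neurons. The T-type pore gene Cacna1g had log2 signals of 8.14, 6.05 and 5.68 in GFP high, low and negative cells. As with Cacna2d1, the GFP high array alone stood out. It was 5.48-fold higher in GFP high than negative cells and stood 4.26-fold above GFP low cells, and GFP low and negative differed by 1.29-fold. A second probe of Cacna1g had log2 signals of 6.31 in GFP high and 5.70 in GFP low cells, a difference of 1.53-fold, and was not detected in GFP negative cells. GFP high cells stood at least 2.25-fold and GFP low cells at least 1.47-fold above GFP negative cells on this probe, so the size of the step from GFP low to high differed between the probes. Cacna1h, the other detected T-type gene, had log2 signals of 9.86, 9.89 and 8.98. It was 1.84-fold higher in GFP high and 1.89-fold higher in GFP low than negative cells, short of 2-fold, and GFP high and low differed by 1.02-fold.

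The beta subunits, cytoplasmic partners of the calcium channel pore, differed by less than 2-fold. Cacnb4 had log2 signals of 6.24, 6.27 and 5.70 and Cacnb1 of 5.21, 5.18 and 4.68, the last not detected. Of the gamma family, the members detected are best known as TARPs, which carry AMPA-type glutamate receptors to the membrane. Cacng7 had log2 signals of 6.74, 6.88 and 5.60, and both GFP-bearing populations were above the negative one, by 2.21-fold in GFP high and 2.44-fold in GFP low cells. Cacng4 had log2 signals of 8.17, 8.35 and 7.71, with the same order and differences of up to 1.55-fold.

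Cacng5 was the only detected channel gene that was brightest in GFP low cells and 2-fold or more below that in GFP high cells. Its log2 signal was 7.08 in GFP low cells, against 5.31 in GFP high and 6.41 in GFP negative cells. It was 3.40-fold lower in GFP high than low cells and 2.14-fold lower than in GFP negative cells. A second probe was detected on the GFP low array alone, which bounds its difference from GFP high cells at 1.84-fold, short of 2-fold. The 3 V2 interneuron markers with a probe, Gata2, Gata3 and Foxn4, were each lower by 2-fold or more in GFP high than low cells. Their mean log2 signal was 7.13, 9.55 and 8.92 on the arrays for GFP high, low and negative cells. Gata2 and Gata3 were brightest in GFP low cells, as Cacng5 was. Foxn4 was brightest in GFP negative cells, at 9.67 against 9.08 in GFP low cells. The drop from GFP low to high cells was not particular to V2 markers. All 3 markers of dividing cells and 3 of 5 progenitor markers compared were also 2-fold or more lower in GFP high than low cells. The part of any of these cells in the Cacng5 difference was not tested.

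The sodium channel genes that were detected had low signals. Scn8a, a pore gene of the axon initial segment, had log2 signals of 5.19, 5.21 and 5.25, close to 5.13, the lowest detected signal on the GFP high and GFP low arrays, and its differences of up to 1.04-fold lay within the between-probe SD. The beta subunits are single-span proteins that modulate gating and adhesion. Scn2b had log2 signals of 6.46, 5.64 and 5.24, in the order of the reporter, and was 2.32-fold higher in GFP high than negative cells and stood 1.76-fold above GFP low cells. Scn3b had log2 signals of 5.68 and 5.51 in GFP high and low cells and was not detected in GFP negative cells. It was higher by at least 1.45-fold in GFP high than negative cells. Signals as low as these are drawn toward each other by the offset added to every signal, and their folds depend on the processing. Over the alternatives, the log2 difference between GFP high and negative cells ranged from 0.51 to 1.74 for Scn2b and from 0.38 to 1.87 for Scn3b.

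The hyperpolarization-activated channels pass a pacemaker current. Hcn2 had log2 signals of 6.15, 6.44 and 6.09 and Hcn3 of 7.41, 7.23 and 6.78. Hcn3 was 1.55-fold higher and Hcn2 1.04-fold higher in GFP high than negative cells, and no HCN gene reached 2-fold in any comparison.

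Among voltage-gated potassium channels, the 3 detected pore genes all had the order GFP high, GFP low, GFP negative. Kcnh2 encodes the ERG channel, which repolarizes the heart muscle and contributes to the resting potential of neurons. Its log2 signals were 11.23, 10.67 and 10.18, a difference of 2.07-fold between GFP high and negative cells, and a second probe gave 10.19, 9.40 and 8.89. The second probe had the same order of arrays. Kcnf1, a subunit that forms no channel alone and modifies Kcnb channels, had log2 signals of 7.49, 7.15 and 6.43 and was 2.07-fold higher in GFP high than negative cells. Kcnc1, a pore gene of fast-spiking neurons, had log2 signals of 9.37, 9.02 and 8.43 and fell short of 2-fold at 1.91-fold.

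The promoter of Kcnh2 is shown because it is 1 of 2 promoters of detected channel genes that held CAGCACC, here as its reverse complement.
Kcnh2, chr5:24329542-24329841, minus strand: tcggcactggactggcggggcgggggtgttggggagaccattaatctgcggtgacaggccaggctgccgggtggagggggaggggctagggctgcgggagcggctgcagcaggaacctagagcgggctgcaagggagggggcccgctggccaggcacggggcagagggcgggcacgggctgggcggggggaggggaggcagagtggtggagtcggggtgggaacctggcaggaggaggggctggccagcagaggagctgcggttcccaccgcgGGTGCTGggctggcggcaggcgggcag
Its GC content was 74.3%, and it did not hold GGACAG. The other such promoter belonged to Kcnab2, which was less than 2-fold apart in each comparison.

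The auxiliary potassium subunits differed by less than 2-fold in all comparisons. Kcne1l, a single-span subunit of the Kcne family, had log2 signals of 7.70 (GFP high), 6.80 (GFP low) and 7.09 (GFP negative). It was 1.87-fold higher in GFP high than low cells. Kcnab2 and Kcnab3, cytoplasmic beta subunits of Kv channels, differed between GFP high and negative cells by 1.14-fold and 1.29-fold, with GFP high the higher. Kcnmb4, a neuronal beta subunit of the large-conductance calcium-activated channel, had log2 signals of 6.18, 6.06 and 6.26. This probe and a second one detected on both arrays gave log2 differences between GFP high and low cells of 0.12 and -0.24. The remaining probe, not detected in GFP high cells, was lower there by at least 1.56-fold, so no direction can be given for Kcnmb4.

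Calcium-activated channels follow the spike with a hyperpolarization. Kcnn1, a small-conductance member, had log2 signals of 8.73, 8.14 and 7.54. The steps were of similar size, 1.51-fold from GFP low to high and 1.52-fold from GFP negative to low, and the whole range was 2.29-fold. Kcnu1, a channel known from sperm, was grouped with Kcnn1 by its symbol alone and not for calcium activation. It was detected on the GFP high array alone, with a log2 signal of 5.41 against 4.64 and 4.56 on the undetected arrays. It was higher by at least 1.21-fold in GFP high than negative cells.

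The tandem-pore K2P genes, which set the resting potential by a potassium leak, went both ways. Kcnk10, a member gated by lipids and stretch, had log2 signals of 7.51, 7.53 and 5.92. GFP high and low cells were alike, with a difference of 1.01-fold, and stood 3.01-fold and 3.04-fold above GFP negative cells. Kcnk2, its close relative, was detected on the GFP high array alone, at 5.20 against 4.47 and 4.90, which bounds its differences at 1.05-fold and 1.04-fold. In the other direction Kcnk5, an acid-sensitive leak channel known from kidney epithelium, had log2 signals of 5.65 (GFP high), 7.09 (GFP low) and 8.46 (GFP negative). It was 7.03-fold lower in GFP high than negative cells, with steps of 2.71-fold and 2.59-fold. A second probe of Kcnk5 was detected on the GFP negative array alone and was lower by at least 1.40-fold in GFP high cells. Kcnk1, a weakly conducting leak channel, had log2 signals of 5.32, 6.0 and 6.67 and was 2.54-fold lower in GFP high than negative cells.

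The promoter of Kcnk5, the channel gene with the largest difference against the reporter, held neither of the searched letter strings.
Kcnk5, chr14:20181733-20182032, minus strand: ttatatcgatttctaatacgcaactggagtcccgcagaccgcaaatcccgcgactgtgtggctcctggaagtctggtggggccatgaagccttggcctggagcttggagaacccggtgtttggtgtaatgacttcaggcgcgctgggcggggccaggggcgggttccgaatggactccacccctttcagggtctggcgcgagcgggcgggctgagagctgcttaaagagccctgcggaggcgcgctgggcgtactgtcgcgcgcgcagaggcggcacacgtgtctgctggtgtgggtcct
Its GC content was 63.7%, with 26 CpG pairs.

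Inward rectifiers were detected in GFP negative cells alone. Kcnj16, which pairs with other inward rectifiers in epithelia and glia, had a log2 signal of 5.48 in GFP negative cells and was not detected in the others, lower by at least 1.28-fold in GFP high and lower by at least 1.27-fold in GFP low cells. Kcnj4, a strong inward rectifier, had a log2 signal of 5.40 in GFP negative cells against 5.01 and 4.67.

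Of the 29 detected channel genes Kcnk5, Kcnk1, Kcnj16, Kcnj4, Kcnmb4 and Scn8a were brightest in GFP negative cells by their representative probes. For Kcnmb4 and Scn8a the log2 differences from GFP high cells were 0.08 and 0.06 in size, within the between-probe SD. The other detected probes of Kcnmb4 were brightest in GFP low cells. Markers of other cells were also brightest on the GFP negative array. Of 4 endoderm and epithelium markers with a probe, 3 were detected there and 0 on the others, and these 3 had a mean log2 signal of 4.54, 4.80 and 7.14 on the arrays for GFP high, low and negative cells, and Afp was not detected. Of 3 blood markers 2 were detected, and they had a mean of 4.46, 4.80 and 8.73, and Ptprc was not. Of 6 fibroblast and feeder markers only Sparc was detected, at 6.22, 7.93 and 10.92, and Col1a1, Col1a2, Col3a1, Thy1 and Pdgfrb were not detected on any array. Of 4 endothelial markers only Esam was detected, at 4.97, 5.61 and 6.14. Of 6 muscle and heart markers only Actn2 was detected, at 5.27 in GFP negative cells. Of 4 glial markers, Slc1a3 and Pdgfra were detected, and they had a mean of 6.05, 7.29 and 8.91. The 6 neural progenitor markers had a mean of 7.53, 8.24 and 8.87, though Olig2 had the opposite order, with 6.77, 6.43 and 6.27, and Fabp7 was detected in GFP negative cells alone. The 3 markers of dividing cells had a mean of 8.32, 10.08 and 10.84. The part of these cells in the channel differences was not tested.

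Neuronal markers were also brighter on the GFP high than on the GFP negative array. The channel genes named as higher were picked for that direction, so sharing it with these markers carries no information. All 6 general neuron markers were detected on each array, with a mean log2 signal of 11.44, 10.84 and 9.50. The 5 motor neuron markers had a mean of 10.50, 7.30 and 6.22, and the 4 V1 and GABAergic markers a mean of 9.83, 9.36 and 7.09. The part of each of these in the channel differences was not tested.

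**Figure D3:**
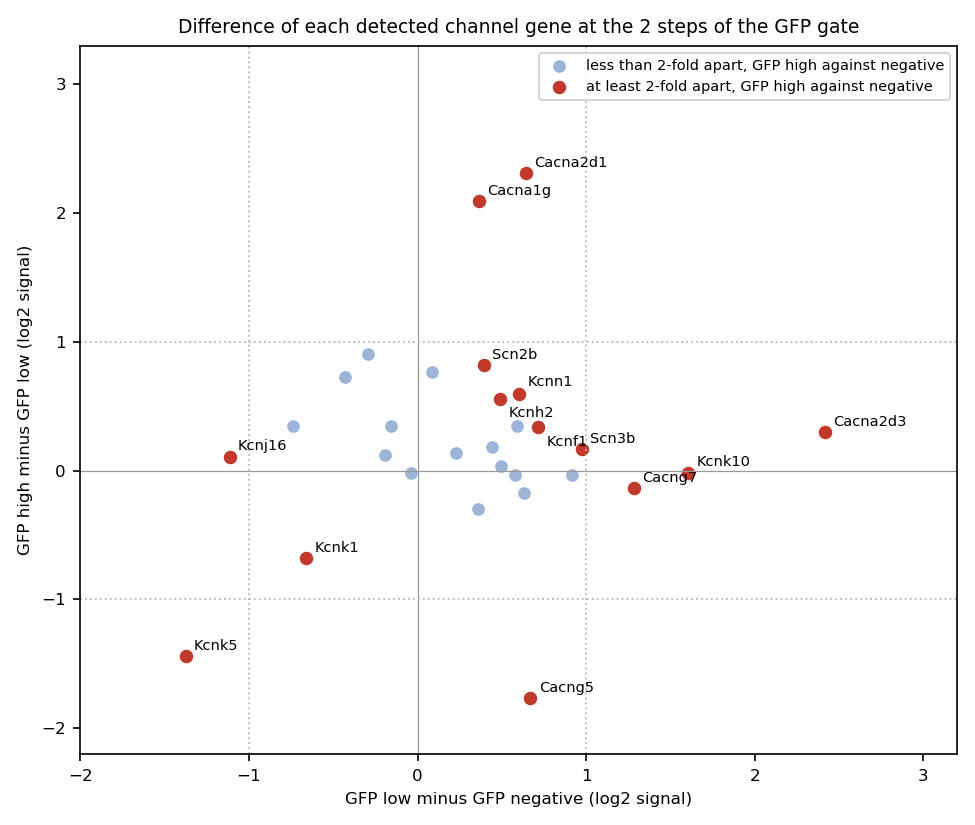
Log2 difference of each detected channel gene from GFP negative to GFP low (horizontal axis) and from GFP low to GFP high (vertical axis), 1 array per population, with dotted lines at 2-fold. Genes 2-fold or more apart between GFP high and negative are red and named; Cacna2d1 and Cacna1g lie high up near the vertical axis, Cacna2d3, Kcnk10 and Cacng7 to the right near the horizontal axis, and Kcnk5 at the lower left. Each gene is plotted by its brightest probe. Of the named genes Scn3b and Kcnj16 are plotted at measured signals that include undetected arrays.

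The higher genes fell into 3 patterns along the gates, which the plot of the differences at both steps shows. Cacna2d1 and Cacna1g were 2-fold or more higher in GFP high cells than in both other populations, and the GFP low population held 21.7% and 14.8% of the log2 difference between GFP high and negative. This pattern was seen in 2 of the 29 channel genes and in 54 genes of the whole array, or 0.617% of those detected. For Cacna1g it rests on the brightest probe. On the second probe of Cacna1g, GFP high cells stood 1.53-fold above GFP low cells, short of 2-fold. Cacna2d3, Kcnk10 and Cacng7 were 2-fold or more higher in both GFP high and GFP low than negative cells, with 89.0%, 100.9% and 112.1% of the difference already present in GFP low cells, a pattern of 2.43% of all detected genes. Scn2b, Kcnn1, Kcnf1 and Kcnh2 reached 2-fold over the whole range and at neither step, and Scn2b had 32.5%, Kcnh2 46.7%, Kcnn1 50.4% and Kcnf1 68.1% of the difference in GFP low cells. By measured signals Scn3b also has this pattern, seen in 3.61% of all detected genes, but its GFP negative signal was not detected and its difference is bounded at 1.45-fold. In total 15 of the 29 genes were less than 2-fold apart in every comparison, against 81.9% of all detected genes.

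Genes that anchor, transport or assist channels, and pumps and exchangers that maintain the ion gradients, were followed beside the subunits. Of 50 such genes listed, 45 had a probe and 26 were detected. Between GFP high and negative cells 6 of 25 were 2-fold or more higher in GFP high cells, against 6.99% of all genes, and 1 was lower, against 9.88%. Their median log2 difference was 0.53, and that of all genes 0.02. Cntnap2, which clusters potassium channels along the axon, was 4.67-fold higher, with log2 signals of 8.03, 7.60 and 5.81. Rem2, a small GTPase that restrains calcium channels, was 3.52-fold higher, and Stac2, an adaptor of L-type calcium channels, 3.21-fold. Ank3 and Nfasc, which hold sodium channels at the axon initial segment, were 2.99-fold and 2.67-fold higher. Fgf13, a cytoplasmic partner of sodium channels, was 2.12-fold higher. The 1 lower gene was the sodium pump subunit Atp1b2, which was not detected in GFP high cells, so that its difference is bounded at 1.61-fold, and Atp1b1 was 1.97-fold lower. The chloride importer Slc12a2 had log2 signals of 10.42, 10.88 and 11.18, and the chloride extruder Slc12a5 was not detected on any array.

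**Figure D4:**
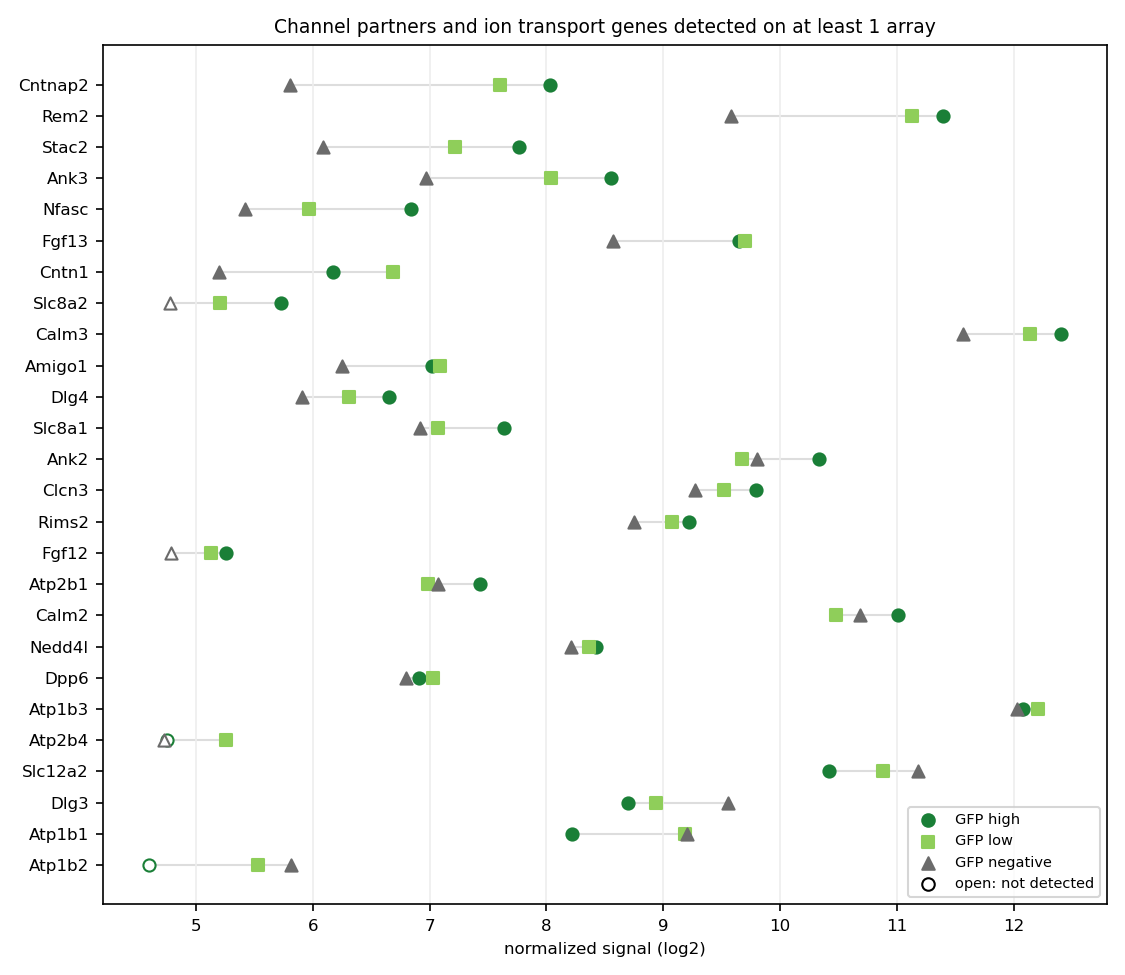
Normalized log2 signal (horizontal axis) of the 26 detected channel partner and ion transport genes on the GFP high (circle), GFP low (square) and GFP negative (triangle) arrays, 1 array each, ordered by the difference between GFP high and negative; open symbols were not detected. Cntnap2, Rem2, Stac2 and Ank3 head the list, and Atp1b1 and Atp1b2 close it.

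Between GFP high and low cells 0 of 26 partner genes were 2-fold or more higher or lower, against 1.1% and 4.17% of all genes. Their median log2 difference was 0.21, and that of all genes 0.03. Between GFP low and negative cells 6 of 26 were 2-fold or more higher, against 3.37% of all genes, and 0 lower, against 2.68%. Cntnap2 was 3.47-fold, Rem2 2.92-fold, Cntn1, an adhesion partner of sodium channels, 2.80-fold, Stac2 2.20-fold, Fgf13 2.18-fold and Ank3 2.09-fold higher in GFP low cells. That the larger step of these 6 genes was the one from GFP negative to GFP low follows from how they were picked.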

How the data were processed

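The data were 3 arrays, 1 for each GFP population, grouped by the GFP level in the sample labels. The authors deposited a linear intensity per probe without normalization or background subtraction together with a p-value of detection, both per the file headers. GenomeStudio is named per the submitters' processing notes. Its version is not given in the sources used here. A second deposited table, also linear intensity, has a floor of 10 and medians of 12.6, 12.5 and 12.5 for GFP high, low and negative. It was used as an alternative. Its background subtraction and its normalization are unknown, and its scale and direction were settled by comparison with the non-normalized intensities (r of 0.994, 0.991 and 0.994 over 5310 probes above 300).

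Intensities were corrected by normexp in limma 3.58.1 (R 4.3.3), which took its background parameters from the detection p-values. An offset of 16 was added before quantile normalization and the log2 transformation. Further steps used Python 3.11.15, numpy 2.4.6 and pandas 2.3.3. The processing was tested on simulated data. Gene names came from the platform annotation, and all 110 channel genes matched the current gene table by gene ID with 0 changed symbols. Each gene was represented by its brightest probe. Of the channel genes 72 have 1 probe and 38 have several. Where the dimmer array was undetected, a fold is a bound taken against the lowest detected signal on that array, or against the dim probe's own signal if that is higher (5.13, 5.13 and 5.14 for GFP high, low and negative).

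All channel genes with a detected probe are named. Full values are given for those at least 2-fold apart in any comparison or within 0.2 log2 of that size. The exceptions are Scn3b and Kcnj16, whose undetected signals are left out. The genes, the partner and marker lists, the motifs and this rule were chosen with earlier results of these data known. Alternatives were the background step, the offset, the scaling between arrays, the second deposited table, the detection threshold and filter, the mean of all probes, and bounds.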

Additional observations from a re-analysis of the deposited data

How the results depend on the processing

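The log2 differences between GFP high and negative cells ranged over the alternatives from 2.19 to 3.17 for Cacna2d1, 2.27 to 2.81 for Cacna2d3, 1.47 to 2.89 for Cacna1g and -3.27 to -1.30 for Kcnk5. Of 23 differences of at least 2-fold in single channel genes, 8 stayed at that size without the normexp step, 14 with an offset of 50, 22 with median scaling, 23 in the authors' value table and 20 with bounds. With the mean of all probes 4 of the 9 in genes with several probes stayed at that size, and under all of these settings 0 changed sign. Between GFP high and negative cells, the counts at 2-fold fell to 3 higher and 1 lower without the normexp step, and to 6 higher and 1 lower when the offset was 50. Both settings compress dim signals by construction. Between GFP high and low cells, 0 genes were lower without the normexp step and 1 with the mean of all probes, and 6 were higher in the authors' value table. Between GFP low and negative cells, 1 gene was higher without the normexp step and 5 in the authors' value table. In that comparison 1 gene was lower without the normexp step, with an offset of 50, with detection on both arrays, with the mean of all probes and with bounds. With no detection filter, which adds the 81 undetected genes, the median of the log2 differences was 0.057 between GFP high and negative cells and 0.067 between GFP low and negative cells. No paired analysis was possible because each population has 1 array. Signal over background limits most of these genes: of the 81 undetected, 21 had a probe with a detection p-value under 0.05.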

Other observations

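Several undetected channel genes lay close to the detection threshold of 0.01, and those named here are examples. Kcnd2, a pore gene of the fast inactivating A-type current, had detection p-values of 0.01, 0.20 and 0.076 in GFP high, low and negative cells. Kcnh1, a relative of Kcnh2, had 0.014, 0.053 and 0.67. Kcnj3, an inward rectifier opened by G proteins, had 0.014, 0.22 and 0.13. Kcna3, a Kv pore gene, had its lowest value, 0.01, on the GFP low array, and Kcnk6, a tandem-pore gene, had its lowest, 0.013, on the GFP negative array. Kcna10 on the GFP high array and Kcnip2 on the GFP negative array also had 0.01, and Kcna5 had 0.0125 on the GFP low array. No level can be given for these genes.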
